A study of Mus musculus with 6 samples.

Results

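Lin28a, Lin28b, Trim71, Igf2bp1, Igf2bp2, Igf2bp3, Hmga1 and Hmga2 encode the Lin28 RNA-binding proteins and proteins of the embryo whose mRNAs are known targets of the let-7 microRNAs. These 8 genes were chosen by name, and their probe sets were found through the gene symbols of the array's annotation table. Of the 45101 probe sets on the array, 19 carried the symbol of a member alone, and they covered 6 of the 8 genes. Igf2bp2 and Hmga1 were not named by such a probe set in that table and are not analysed here. A probe set is a group of short oligonucleotides that together measure one transcript.

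The RNA came from embryoid bodies, the rounded aggregates in which mouse embryonic stem cells differentiate in suspension. Cells of the D3 line, grown beforehand with LIF, were mixed with gelatin-coated microspheres, and the bodies were kept in rotary culture without LIF and sampled at 10 days. In the 3 control samples the microspheres held the dye CellTracker Red, and in the 3 other samples they held retinoic acid (RA), the signalling form of vitamin A, which binds nuclear receptors. Bodies of both groups therefore held coated microspheres, and neither the dose of RA nor the ratio of microspheres to cells is stated for these arrays. The study's title speaks of an early streak phenotype after RA delivery inside the bodies, and the question here is how these genes differed between the groups. All samples came from a single cell line, each array measured whole bodies, and the triplicates are not said to be separate cultures. Every p-value below therefore rests on the scatter among the 6 arrays, some or all of which may be technical.

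Lin28 proteins keep let-7 low in early embryonic cells. They bind the loop of the let-7 precursor, where the letters GGAG lie in many family members. Lin28a recruits the uridylyl transferases Tut4 and Tut7, whose U tail marks the precursor for decay. When Lin28 declines during differentiation, mature let-7 accumulates and lowers the mRNAs that hold its sites, among them those of Hmga2, Trim71, the Igf2bp family and the Lin28 genes themselves. Mature let-7 was not measured on these arrays.

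The sequences that connect the members are those of let-7. The mature forms are shown because let-7 targets are recognised mainly through their shared seed, bases 2 to 8, which is in capitals. RefSeq for GRCm38.p6 listed 9 mature 5p names of the mouse family.
mmu-let-7a-5p: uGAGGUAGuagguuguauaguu
mmu-let-7b-5p: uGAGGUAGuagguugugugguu
mmu-let-7c-5p: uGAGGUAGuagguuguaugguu
mmu-let-7d-5p: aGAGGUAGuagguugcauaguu
mmu-let-7e-5p: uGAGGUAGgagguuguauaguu
mmu-let-7f-5p: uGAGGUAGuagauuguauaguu
mmu-let-7g-5p: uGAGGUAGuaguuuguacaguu
mmu-let-7i-5p: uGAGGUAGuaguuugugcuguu
mmu-miR-98-5p: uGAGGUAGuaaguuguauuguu
The 9 sequences differed from each other, and all 9 held the seed GAGGUAG.

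The precursors are shown because Lin28 acts on their loops. The letters GGAG were searched on the RNA strand between the 5p arm and the 3p arm and are in capitals where they were found. They were found in 9 of the 12 family hairpins in the table, and 1 hairpin with the motif and the 3 without it follow.
Mirlet7g, chr9:106178840-106178927, plus strand: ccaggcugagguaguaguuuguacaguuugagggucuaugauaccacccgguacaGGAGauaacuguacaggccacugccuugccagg
Mirlet7b, chr15:85707319-85707403, plus strand: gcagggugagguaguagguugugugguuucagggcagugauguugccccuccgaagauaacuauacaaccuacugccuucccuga
Mirlet7c-2, chr15:85706603-85706697, plus strand: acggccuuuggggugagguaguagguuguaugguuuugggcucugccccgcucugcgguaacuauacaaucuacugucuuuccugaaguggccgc
Mir98, chrX:151913214-151913321, plus strand: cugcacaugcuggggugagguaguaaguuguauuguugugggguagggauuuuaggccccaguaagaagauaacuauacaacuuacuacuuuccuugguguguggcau
Of all 1005 mouse hairpins in the table, 44.5% held GGAG at some position, in or outside the loop. Searched in that way, 9 of the 12 family hairpins held it. The loops of the other hairpins were not searched alone. A match is a description of the letters and not a measured binding site.

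Values below are log2 of the deposited intensity plus 16, made comparable between arrays by quantile normalization, and a difference of 1 is a doubling. Differences are RA minus control on that scale, with the standard error (SE) of a limma fit. A gene was called changed when its p, adjusted by the Benjamini-Hochberg method over all genes tested, was under 0.05. Probe sets with a mean at or below a log2 level of 5.74, the 40th percentile of the array, were not tested, and each gene was represented by its brightest remaining probe set. Median intensities of the arrays ranged from 41.4 to 65.5. Control array 3 was the dimmest. RA array 1 had a 3-prime to 5-prime ratio of 34 for Gapdh, which reads how complete the labelled RNA is, while the other arrays had ratios of 3.06 to 4.74. For actin the ratio was 3.46, 3.35 and 4.24 in controls 1, 2 and 3 and 7.42, 4.35 and 4.9 with RA. On actin every RA array thus lay above every control array, and the part of this in the results was not tested. In control bodies the group means of single markers ran from 9.54 to 12.94 for mesenchyme, 6.04 to 12.01 for heart, 6.49 to 13.19 for embryonic blood and 5.64 to 13.47 for visceral endoderm. The lowest were the heart factor Nkx2-5, the blood factor Klf1 and the endoderm uptake gene Amn, which lay below the filter level in controls.

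With RA microspheres Lin28a rose 7.31-fold and Hmga2, a let-7 target, fell 2.97-fold, while Trim71, Igf2bp1 and Igf2bp3 were not called at the level of the gene. Thus 1 of the 5 tested members was higher and 1 was lower. Among all 13608 genes tested, 14.3% were higher with RA and 15.6% were lower, so the members' counts lay close to the background. The groups did not overlap for 3 of the 5 members, Lin28a, Trim71 and Hmga2, against 44.0% of all genes tested. The members' median difference was 0.32, beside 0.01 for all genes. On the level of single probe sets, 6 of the 17 kept were higher and 3 were lower, where 11.3% and 11.1% of all 27022 kept probe sets were. The groups did not overlap for 11 of the 17, against 38.4% of all kept probe sets. The probe sets of a gene read the same RNA and are not independent.

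**Figure D1:**
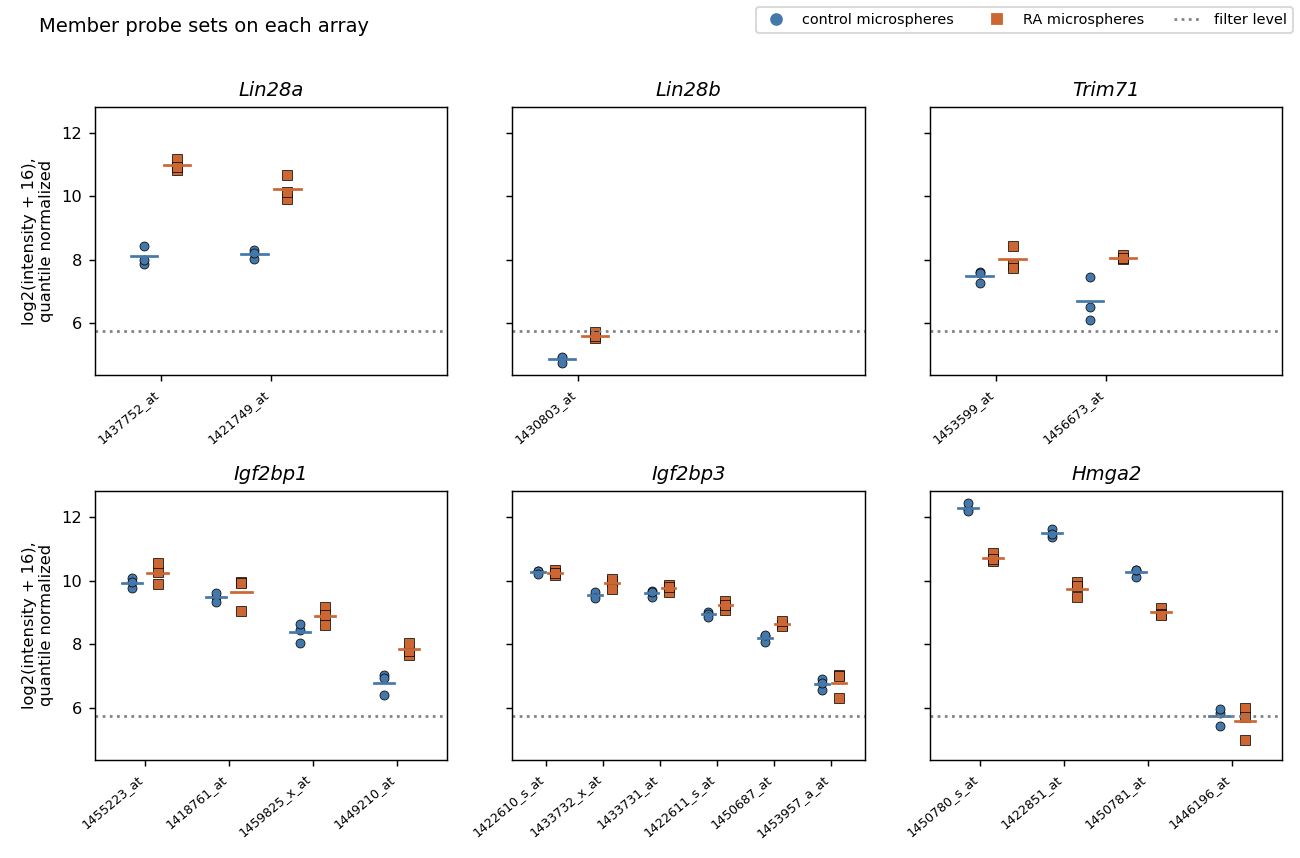
Log2(intensity + 16) after quantile normalization (y axis) for all 19 member probe sets (x axis), with 3 control arrays as circles, 3 RA arrays as squares, group means as short lines and the filter level of 5.74 dotted. Both Lin28a probe sets are higher on every RA array, the 3 brighter Hmga2 probe sets are lower on every RA array, and Lin28b lies below the filter level.

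Lin28a, the Lin28 protein best known from pluripotent cells, was measured by a pair of probe sets. Probe set 1437752_at read 8.44, 7.88 and 7.99 in controls 1, 2 and 3 and 10.84, 11.17 and 10.92 with RA, in the same order of arrays. Every RA array lay above every control array, by more than the spread within either group. The mean went from 8.11 ± 0.30 to 10.98 ± 0.17 (SD, n = 3), a difference of 2.87 with an SE of 0.14 and a 95% interval of 2.55 to 3.19 (limma, Benjamini-Hochberg adjusted p = 8.93e-08). It ranked 20 from the highest of the 13608 differences. Probe set 1421749_at read 8.04, 8.31 and 8.21 in controls and 9.92, 10.67 and 10.14 with RA, again without overlap. Its difference was 2.06 with an SE of 0.17, or 4.16-fold (limma over all kept probe sets, adjusted p = 1.13e-05).

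Markers of pluripotent and epiblast cells moved with Lin28a. All 7 listed markers were higher with RA, with a median difference of 1.83. The count was 6 with trimmed mean scaling, the replicate block or no filter, and without any 1 of control arrays 2 and 3 and RA arrays 2 and 3. Their summed normalized intensity was 2410 to 2620 on control arrays and 13700 to 14500 on RA arrays. Pou5f1, the Oct4 transcription factor of pluripotent cells, read 8.28 ± 0.29 in controls and 10.70 ± 0.15 with RA (SD, n = 3), a difference of 2.43. Of the 7 neural markers tested, 3 were higher and none lower, or 42.9% and 0%, beside 14.3% and 15.6% of all genes. Sox1, Fabp7 and Stmn2 were higher, while Pax6, Nes, Neurog1 and Tubb3 were not called, at 0.27, 0.02, 0.61 and 0.4. The sum of the 7 was 474 to 715 in controls and 2360 to 2850 with RA. Fabp7 and Stmn2 were the brightest of them with RA, at means of 9.94 and 9.82. In RNA of whole bodies, a change in the number of cells of a type and a change in RNA per cell cannot be told apart. This holds for rises and falls alike. The part of either marker group in the Lin28a result was not tested.

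The genes whose pattern over the 6 arrays was closest to Lin28a were found by the root mean square (RMS) difference of their centred log2 values. Genes with predicted or clone-like symbols were left out of this search, here and for Hmga2. The measure favours genes whose difference between the groups is of like size. Serpinb9g, a serine protease inhibitor, was the closest at an RMS difference of 0.0784 and was 7.16-fold higher with RA. It was followed by the neuronal genes Stmn2 (0.122) and Ina (0.167), a microtubule regulator and a neurofilament protein. Cyp26a1, the enzyme that clears RA, stood between them at 0.151 and was 8.14-fold higher.

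Lin28b, the second Lin28 gene, was read by 1 probe set, 1430803_at, which lay below the filter level. Its values were 4.92, 4.94 and 4.74 in controls and 5.54, 5.71 and 5.59 with RA. The groups did not overlap, but all 6 values were under 5.74 and open to background. Deposited intensities ran from 7.7 to 16.2 in controls and from 31.4 to 39.9 with RA. When all 18193 genes were fitted without the filter, of which 10.0% were higher with RA, the difference was 0.74 with an SE of 0.22 (limma, adjusted p = 0.0366). In the fit of all probe sets without the filter the adjusted p of limma was 0.0886. No fold is drawn from it, and the difference between Lin28a and Lin28b was not tested.

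Trim71, the mouse Lin-41 and a let-7 target that represses mRNAs and ubiquitinates proteins, gave different results with its probe sets. The brighter one, 1453599_at, read 7.60, 7.28 and 7.57 in controls and 7.85, 8.44 and 7.73 with RA. The groups did not overlap, but the gap between control array 1 and RA array 3 was small beside the height of RA array 2. The difference was 0.52 with an SE of 0.20 and a 95% interval of 0.09 to 0.96, which did not pass the threshold (limma, adjusted p = 0.0666). Without RA array 3 it did, at 0.66 (limma, adjusted p = 0.044), and without RA array 2 it was 0.31 (limma, adjusted p = 0.264). The dimmer one, 1456673_at, read 6.52, 6.09 and 7.46 in controls and 8.14, 8.02 and 8.05 with RA. All 3 RA arrays lay together above the controls, among which array 3 was highest. This probe set was 2.60-fold higher, a difference of 1.38 with an SE of 0.29 (limma over all kept probe sets, adjusted p = 0.00583). It stayed past the threshold when any 1 array was left out, with differences from 1.08 to 1.79.

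Hmga2, an architectural chromatin protein of embryonic and mesenchymal cells and the classic let-7 target, was the member that fell. Probe set 1450780_s_at read 12.25, 12.21 and 12.44 in controls and 10.87, 10.63 and 10.69 with RA. Every RA array was lower than every control array, and the arrays of each group lay close together. The mean went from 12.30 ± 0.12 to 10.73 ± 0.13 (SD, n = 3). The difference was -1.57 with an SE of 0.09 and a 95% interval of -1.76 to -1.38 (limma, adjusted p = 2.06e-07), which ranked 264 from the lowest. Its suffix marks a probe set that can also hybridise other transcripts, but the unique probe sets fell as well. Probe set 1422851_at read 11.38, 11.62 and 11.47 in controls and 9.47, 9.95 and 9.82 with RA, and was 3.33-fold lower (limma over all kept probe sets, adjusted p = 2.83e-06). Probe set 1450781_at was 2.41-fold lower (limma over all kept probe sets, adjusted p = 1.02e-05). The remaining one, 1446196_at, lay around the filter level, at 5.41 to 5.94 in controls and 4.98 to 5.99 with RA, and was not tested.

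Markers of mesenchyme moved with Hmga2. All 7 were lower with RA, with a median difference of -2.13, and their summed normalized intensity was 18900 to 21700 in controls and 3430 to 3840 with RA. Col3a1, a fibrillar collagen, read 12.94 ± 0.06 in controls and 10.56 ± 0.04 with RA (SD, n = 3). Heart markers were lower for 5 of 6, with sums of 12500 to 17000 in controls and 550 to 580 with RA, and embryonic blood markers for 4 of 6, with sums of 15300 to 17400 and 451 to 489. Visceral endoderm markers were split, 2 higher (Amn by 2.94 and Cubn by 3.22) and 4 lower of 6, with sums of 23300 to 25400 and 7630 to 8870. The part of these cell types in the Hmga2 result was not tested. The genes with the closest pattern to Hmga2 over the 6 arrays were Hsd11b2, which inactivates glucocorticoids (RMS difference 0.0585), the adhesion molecule Alcam (0.064), the glycogen primer Gyg (0.0669) and Coq9, of coenzyme Q synthesis (0.073).

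**Figure D2:**
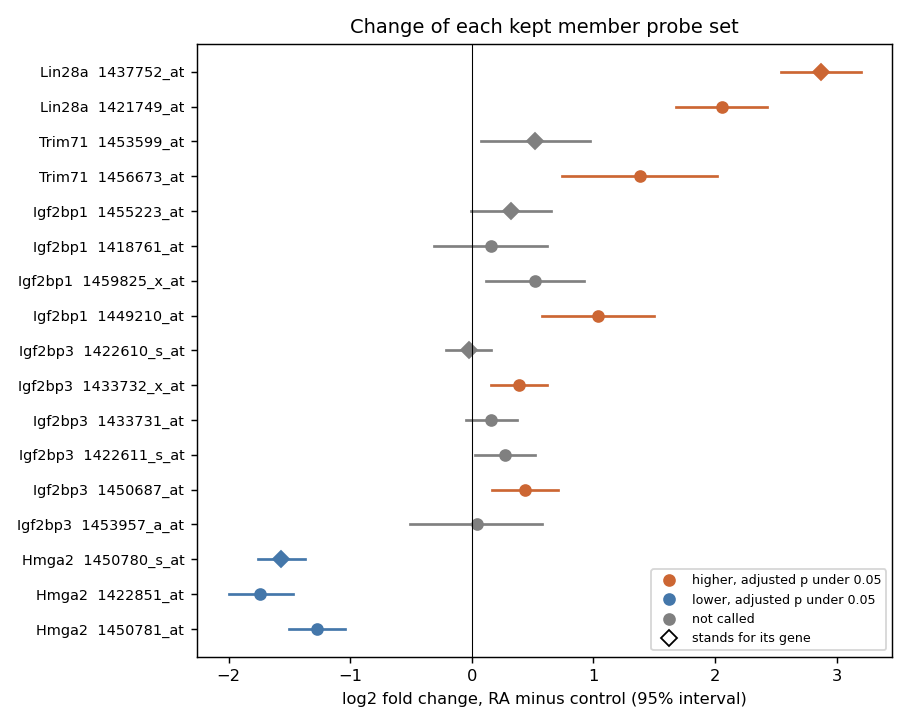
Log2 fold change, RA minus control, with its 95% interval (x axis) for the 17 kept member probe sets (y axis), coloured by the call over all kept probe sets, with diamonds for the probe set that stands for its gene. Lin28a lies at 2.06 and 2.87, the Hmga2 probe sets lie between -1.74 and -1.27, and those of Trim71, Igf2bp1 and Igf2bp3 lie between -0.02 and 1.38.

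The Igf2bp proteins bind mRNAs in the cytoplasm and control their stability, location and translation. Igf2bp1, which binds mRNAs such as those of Myc and Actb, had 4 probe sets. The brightest, 1455223_at, read 10.07, 9.76 and 9.95 in controls and 9.91, 10.26 and 10.56 with RA. RA array 1, the array with the Gapdh ratio of 34, lay within the controls and the other RA arrays lay above them. The difference was 0.32 with an SE of 0.15 and a 95% interval of 0 to 0.64 (limma, adjusted p = 0.13). Without RA array 1 it was 0.48 with an SE of 0.12 and passed the threshold (limma, adjusted p = 0.0145). It was 0.16 without RA array 3 (limma, adjusted p = 0.449) and 0.23 without control array 2 (adjusted p = 0.338). Probe set 1418761_at read 9.50, 9.61 and 9.34 in controls and 9.03, 9.97 and 9.92 with RA, so that RA array 1 was the lowest of the 6. Its difference was 0.16 with all arrays (limma over all kept probe sets, adjusted p = 0.653) and 0.46 without RA array 1 (adjusted p = 0.0151). Without RA array 2, RA array 3 or control array 3 it was -0.01, 0.02 or 0.09, so its size and sign rested on single arrays. On the dimmest probe set, 1449210_at, the groups were apart, at 7.02, 6.40 and 6.93 in controls and 7.65, 7.78 and 8.04 with RA. It was 2.06-fold higher, a difference of 1.04 with an SE of 0.21 (limma over all kept probe sets, adjusted p = 0.00427), and remained past the threshold without any 1 array. The last, 1459825_x_at, whose suffix marks possible cross-hybridisation, differed by 0.52 (limma over all kept probe sets, adjusted p = 0.0658), and without control array 3 by 0.65 (adjusted p = 0.0446) or without RA array 2 by 0.66 (adjusted p = 0.0304).

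Igf2bp3, the family member known from fetal tissue and tumours, had 6 probe sets. The brightest, 1422610_s_at, read 10.29, 10.32 and 10.22 in controls and 10.18, 10.35 and 10.23 with RA, and the groups overlapped fully. Its suffix, and those of 1422611_s_at and 1433732_x_at, mark possible cross-hybridisation, so its values may not stand for Igf2bp3 alone. The difference was -0.02 with an SE of 0.08 (limma, adjusted p = 0.86), with a 95% interval of -0.20 to 0.15. Its sign turned under other scaling, at 0.05 with trimmed mean scaling and 0.35 with no scaling, where the median of all genes was 0.26. Probe sets 1433732_x_at and 1450687_at were higher by 0.39 and 0.44 (limma over all kept probe sets, adjusted p = 0.0218 and 0.0238). The first of these calls was lost without control array 1 (adjusted p = 0.0541) or 3 (0.0631) and without RA array 1 (0.0631) or 3 (0.108). The second was lost without control array 2 (adjusted p = 0.0819) or RA array 3 (0.101), and both were lost with no scaling. The other 3, 1433731_at, 1422611_s_at and 1453957_a_at, differed by 0.16, 0.27 and 0.04 and did not pass the threshold.

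The difference between Igf2bp1 and Igf2bp3 was tested as the only pair of related members with both kept. The brightest probe set of Igf2bp1 minus that of Igf2bp3 was -0.23, -0.56 and -0.27 in controls and -0.27, -0.08 and 0.33 with RA. RA array 1 lay within the controls. Between groups this quantity moved by 0.34 (exact two-sided permutation test over 3 against 3 arrays, p = 0.3, where the smallest possible p is 0.1), so the test could not pass 0.05. It was 0.17 without RA array 3, 0.23 without control array 2 and 0.47 without RA array 1.

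**Figure D3:**
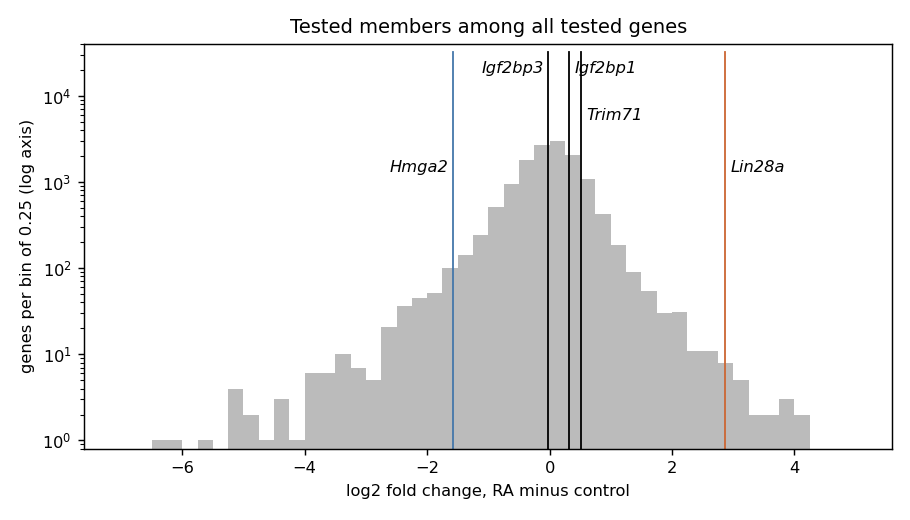
Number of tested genes per bin of 0.25 (y axis, log scale) by log2 fold change, RA minus control (x axis), with a vertical line at each of the 5 tested members. Lin28a at 2.87 and Hmga2 at -1.57 stand in the thin ends of the distribution, and Igf2bp3 at -0.02 stands near its centre. Igf2bp1 at 0.32 and Trim71 at 0.52 stand above the centre, at ranks 3302 and 1785 from the highest.

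The proteins that make microRNAs and destroy let-7 precursors had differences between -0.49 and 0.71. Of 19 listed, all 19 were tested, 5 were higher and 3 lower with RA, or 26.3% and 15.8% beside 14.3% and 15.6% of all genes, and the median difference was 0.15. Dgcr8, the RNA-binding partner of Drosha, read 8.68, 8.25 and 8.17 in controls and 9.17, 9.10 and 8.95 with RA, a difference of 0.71 with an SE of 0.14 (limma, adjusted p = 0.00309). Khsrp, which promotes let-7 processing, differed by 0.71 with an SE of 0.12 (limma, adjusted p = 0.00119). The Argonaute gene Ago1 differed by 0.68 with an SE of 0.13 (limma, adjusted p = 0.00231), and Xpo5 and Ddx17 were also higher. Tut4, a transferase recruited by Lin28a, read 10.40, 10.47 and 10.29 in controls and 9.89, 9.95 and 9.85 with RA. It was 1.40-fold lower, a difference of -0.49 with an SE of 0.08 (limma, adjusted p = 0.00104), so its change was opposite in sign to that of Lin28a. With no scaling the difference of Tut4 was -0.13 and was not called (limma, adjusted p = 0.803). Tut7 and Tnrc6b were lower too. All 3 falls were lost with no scaling, 1 fall was called without control array 1, without RA array 3 or with the mean of a gene's probe sets, and 3 rises were called without RA array 1 and control array 3 together.

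Most other known let-7 targets were not called. Of 25 listed, 21 were tested, 3 were higher and 4 lower, or 14.3% and 19%, near the 14.3% and 15.6% of all genes, and the median difference was 0.01. Nr6a1, an orphan nuclear receptor of the early embryo, read 7.74, 7.75 and 7.79 in controls and 10.37, 10.65 and 10.29 with RA. The groups were far apart, and its difference of 2.68 with an SE of 0.11 came close to that of Lin28a (limma, adjusted p = 2.26e-08). Of its 4 kept probe sets 2 were higher, with differences from 0.26 to 2.68. Mycn, a transcription factor of growing progenitors, was 2.16-fold higher (limma, adjusted p = 3.67e-06), Arid3b was higher, and Myc differed by -0.08 (limma, adjusted p = 0.798). The TGF-beta receptor Tgfbr1 was 1.60-fold lower (limma, adjusted p = 0.000104) and the cyclin Ccnd2 1.51-fold lower (limma, adjusted p = 0.00109), and Irs2 and Igdcc3 were lower as well. Of the kept probe sets, 1 of 2 for Tgfbr1 (-0.93 to -0.68) and 3 of 7 for Ccnd2 (-0.69 to -0.26) were called lower. All 4 falls were lost with no scaling, where Tgfbr1 was at -0.31 (limma, adjusted p = 0.48) and Ccnd2 at -0.23 (adjusted p = 0.619). Without control array 3, 2 of the targets were called lower.

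Partners of the RNA binders and mRNAs they bind formed another list. Of 14 listed, 13 were tested, 6 were higher and 2 lower, or 46.2% and 15.4% beside 14.3% and 15.6% of all genes, and the median difference was 0.31. The share that was lower lay at the background for the list as a whole. The list pools partner proteins with bound mRNAs, so its shares describe neither kind alone. Its count of higher genes was 4 without control array 1 or with the mean of a gene's probe sets. That count was 5 with no scaling, without any 1 RA array, or without RA array 1 and control array 3 together. With trimmed mean scaling 7 were higher. The count of lower genes was 3 with the replicate block or without RA array 2. L1td1, an RNA-binding partner of Lin28 in stem cells, read 8.56, 8.46 and 8.69 in controls and 10.31, 10.36 and 10.16 with RA. It was 3.27-fold higher without overlap (limma, adjusted p = 3.12e-07). Hnrnpu, found with Igf2bp1 in mRNA particles, was 1.51-fold higher (limma, adjusted p = 8.5e-05), but only 1 of its 5 probe sets was called. Its companions Syncrip, Ybx1 and Dhx9 were higher, as was Fmr1.

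Igf2 and Cd44, mRNAs bound by the Igf2bp proteins, were the 2 that fell. Igf2, the fetal growth factor that gave the family its name, read 13.08, 13.09 and 13.12 in controls and 11.00, 11.78 and 11.46 with RA. RA array 1 was the lowest, and the RA arrays spread more than the controls. The difference was -1.69 with an SE of 0.15, or 3.22-fold lower (limma, adjusted p = 8.23e-06), and -1.48 without RA array 1 (limma, adjusted p = 2.06e-06). Cd44, a receptor for hyaluronan, was 2.23-fold lower (limma, adjusted p = 0.000109), with both of its probe sets lower. The fall of the mesenchyme, heart and blood markers given above moved with both genes, and its part was not tested.

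Other high mobility group genes, which also bind DNA or nucleosomes, were listed for comparison with Hmga2. Of 9 listed, 6 were tested and 0 were called by limma in either direction, beside 14.3% higher and 15.6% lower of all genes. At an unadjusted p under 0.05, where 2637 of all 13608 genes were higher and 2761 lower, 1 was higher and 1 lower. They were Hmgb2 at 0.55 (limma, adjusted p = 0.0525) and Hmg20b at -0.43 (limma, adjusted p = 0.0997). A list of 6 genes is too short to tell its share from that of all genes. With no scaling, trimmed mean scaling, the replicate block or the mean of a gene's probe sets, 1 was called higher, and so it was without control array 1 or 2. Whether they differed from Hmga2 was not tested.

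**Figure D4:**
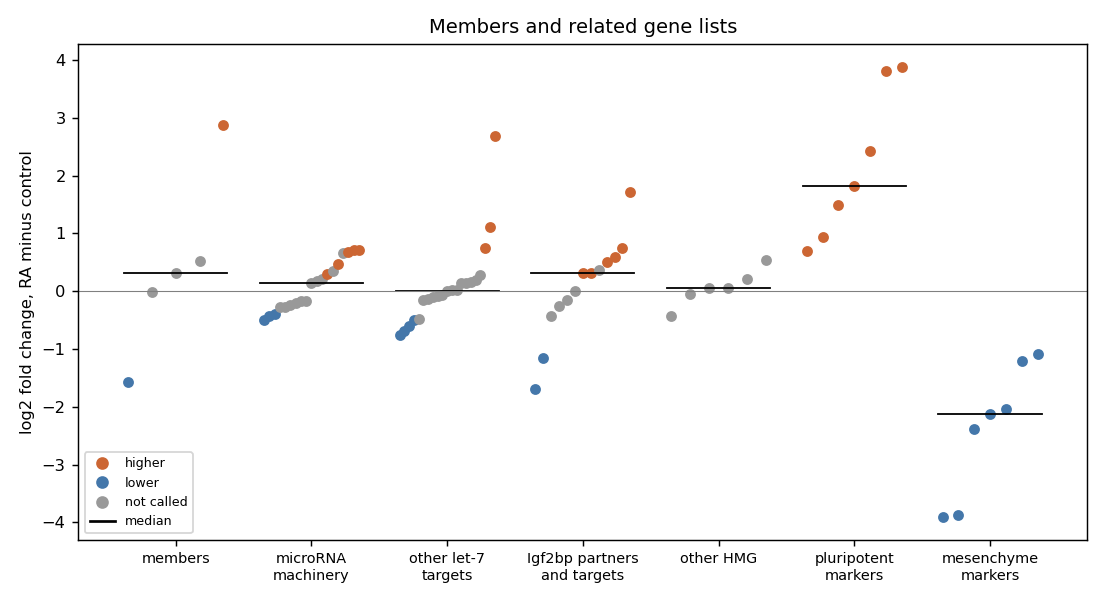
Log2 fold change, RA minus control (y axis), of each tested gene of the members, the related lists and the markers of pluripotent cells and mesenchyme (x axis), coloured by the call, with the median of each list as a line. The medians of the members, the microRNA machinery, the other let-7 targets, the Igf2bp partners and the other HMG genes lie between 0.01 and 0.32, and those of the pluripotent and mesenchyme markers at 1.83 and -2.13.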

How the data were processed

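The values are a linear intensity per probe set on 6 arrays, which the authors made with the Affymetrix GCOS software at default settings, per the labels. The software's version and parameters were not given in the sources used here. Biotin-labelled cRNA from total RNA was hybridised, with 1 array per sample. Groups came from the sample titles. Trimmed mean intensities (2% off each end) of 108 to 191 showed that the arrays were not scaled to a common level. The 64 control probe sets were left out, and log2(intensity + 16) was quantile normalized and fitted with limma 3.58.1 in R 4.3.3 (lmFit, eBayes with a trend, two-sided, no covariates). The pseudocount of 16 understates changes of dim genes. The annotation gave 34945 probe sets a single symbol, 932 several and 9160 none. The procedure was tested on simulated data. The members, lists, markers and tests were chosen with earlier results of these data known. Named genes were the members with all their probe sets, up to 4 genes per list by smallest p past the threshold (at most 3 of one direction where both were called), and the 4 genes most like Lin28a and Hmga2. Genes with predicted or clone-like symbols were not considered for the last. Other genes named in the lists, and markers, were chosen after their values were seen. Alternatives varied the scaling, pseudocount, filter, choice of probe set, weights, variance model, pairing and arrays used, with the filter and the representative probe set otherwise held.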

Additional observations from a re-analysis of the deposited data

How the results depend on the processing

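Lin28a and Hmga2 were called in the same direction under all 17 alternatives, with differences of 2.46 to 3.18 and -1.63 to -1.18. Igf2bp3 was called in 0 of 17 (limma, -0.07 to 0.35), Igf2bp1 in 4 and Trim71 in 3, each as higher. The count of members higher with RA, 1 in the report, was 2 with no scaling (Trim71 added), 2 with no filter (Lin28b), 3 with the mean of a gene's probe sets (Trim71 and Igf2bp1), 2 with array weights (Igf2bp1) and 2 without both RA array 1 and control array 3 (Igf2bp1). Leaving out 1 array at a time gave 1 to 2 members higher. The count of members lower was 1 under each alternative. With no scaling 1745 genes were higher and 653 lower, against 1949 and 2127, so that 72.8% of calls were higher instead of 47.8%, and the median of all genes was 0.26 instead of 0.01. Arrays with the same replicate number did not deviate together (correlations of -0.0853, -0.0139 and -0.0274), and the numbers are not said to mark a pair. The fit with the replicate block gave 1 member higher and 1 lower, 1775 genes higher and 1949 lower, and it changed no member's call. The number of arrays limits the precision of these values.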
